A study of Mus musculus with 18 samples.

Results

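The genes of DNA replication and S phase were followed in regulatory T cells (Treg), the CD4+ T cells that restrain immune responses, from mice with altered doses of the miR-23 cluster. They are 39 genes out of 23953 entries in the table. They were named by their known role in copying the genome, with earlier results of these data known. Every one of the 39 was present and was among the 11520 genes that reached 1 RPKM in at least 3 libraries. RPKM, the read number scaled to transcript length and library size, is a level per length, so levels of different genes can be set side by side.

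RNA sequencing libraries were made from sorted CD4+CD25hi cells of C57BL/6 mice, 3 for each of 6 genotypes. Mice labelled miR-23 Tg, miR-24 Tg and miR-27 Tg overexpressed a single microRNA in T cells, and cluster Tg mice overexpressed the whole cluster. DKO mice lacked the miR-23a and miR-23b clusters in T cells, and WT mice were the controls, written "WT Tg" in the labels as DKO is "DKO Tg". The series title names CD4cre, a Cre recombinase active in T cells in general, so the alterations were not restricted to Treg. The labels give neither the age of the mice nor whether WT mice carried the Cre, nor whether the 3 libraries of a genotype came from separate animals. P-values therefore measure the spread between these libraries, which may be technical.

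Replication is prepared in G1, when the origin recognition complex, Cdc6 and Cdt1 load the MCM helicase on DNA. At the start of S phase Cdc45 and the GINS complex switch the helicase on, the polymerases copy the strands, and the clamp Pcna, its loader, the nuclease Fen1 and Lig1 finish them. Cyclin E and E2F factors drive the step into S phase, and E2F factors are known to switch on many replication genes through short sites near their start. Most Treg in an unchallenged mouse rest, and a fraction cycles.

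The deposited table held the processed microRNA loci, which check the genotype labels. Mir27a stood at 76991, 79108 and 50014 RPKM in the miR-27 Tg libraries 1 to 3 and at 0 to 347 in WT, and was listed at 0 in DKO. Mir23a stood at 31028 to 38276 in miR-23 Tg and Mir24-2 at 7999 to 22325 in miR-24 Tg, and all 3 loci were high in cluster Tg. These RPKM are inflated by the very short length of the loci, so they are set beside no other gene. The mature forms from these loci, from RefSeq on GRCm38.p6, are shown because they are what the genotypes change, with the seed (bases 2 to 8, which pair with target sites) in capitals.
miR-23 (chr8:84208563-84208583, plus strand): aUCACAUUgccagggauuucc
miR-24 (chr8:84208875-84208896, plus strand): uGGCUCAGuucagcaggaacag
miR-27 (chr8:84208727-84208747, plus strand): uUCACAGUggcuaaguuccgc

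Matches to these seeds were no more frequent in the 39 genes than elsewhere. Of the 38 with an annotated 3′ UTR, 4 held a site for miR-23 (10.5%, against 16.3% of all tested genes with a UTR), 4 for miR-24 (10.5% against 18.95%) and 6 for miR-27 (15.8% against 17.04%). Their UTRs had a median of 674 bases against 1141 over all tested genes, and a longer UTR holds more matches of any kind. The 6 with a miR-27 site were Mcm4, Mcm6, Mcm10, Rfc2, Rfc4 and Rrm2, which ranged in miR-27 Tg from Rrm2, the member with the highest fold change, to Rfc2, the one with the lowest. A match is a description and not a working site.

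An E2F motif stood in some of their promoters. RefSeq gave a window of 250 bases before to 50 after the start for 32 of the 39 genes, and 13 of the 32 (40.6%) held an E2F motif in at least 1 window, searched as TTTCCCGC, TTTCGCGC, TTTGGCGC or TTTGCCGC on both strands. The motif stood in 4.89% of the 8519 tested genes with a window and in 2.26% of all 32851 windows. Among 41 other replication genes it was found in 33.3%, and among 30 mitosis genes in 7.41%. The cell cycle homology region (CHR, TTTGAA), through which mitosis genes are known to be switched on late in the cycle, showed the reverse: it stood in 12.5% of the replication genes with a window, 77.8% of the mitosis genes and 14.2% of the tested genes. The CCAAT box (CCAAT) stood in 59.4%, 77.8% and 43.1% of these.

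The 19 E2F matches of the 13 genes (Orc1, Cdc6, Cdt1, Mcm3, Mcm5, Mcm6, Mcm7, Gins3, Pola1, Pold1, Rfc3, Lig1 and Uhrf1) had a median position of -41 from the start, and 11 of them lay between 100 bases before and 50 after it. Of the separate spellings, TTTCGCGC was found in 7 of the genes, TTTCCCGC in 6, TTTGGCGC in 5 and TTTGCCGC in 0. The windows of Mcm6, which held the most matches, Rfc3 and Lig1 are shown 5′ to 3′ on the gene's strand, from RefSeq on GRCm38.p6, with the E2F motifs in capitals. In Mcm6 a pair of motifs overlaps, so the first run of capitals holds both.
Mcm6 (chr1:128359656-128359955, minus strand): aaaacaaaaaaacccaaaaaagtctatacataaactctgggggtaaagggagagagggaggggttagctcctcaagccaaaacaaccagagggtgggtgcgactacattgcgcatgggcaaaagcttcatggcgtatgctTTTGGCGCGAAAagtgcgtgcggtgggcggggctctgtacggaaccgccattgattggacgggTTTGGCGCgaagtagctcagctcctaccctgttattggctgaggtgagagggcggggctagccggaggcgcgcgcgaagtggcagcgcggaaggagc
Rfc3 (chr5:151651159-151651458, minus strand): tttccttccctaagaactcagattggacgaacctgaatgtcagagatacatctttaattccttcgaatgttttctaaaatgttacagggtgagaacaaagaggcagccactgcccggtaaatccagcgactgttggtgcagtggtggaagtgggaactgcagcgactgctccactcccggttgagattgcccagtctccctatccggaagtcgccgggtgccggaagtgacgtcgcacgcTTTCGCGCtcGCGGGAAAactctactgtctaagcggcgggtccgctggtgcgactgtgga
Lig1 (chr7:13278576-13278875, plus strand): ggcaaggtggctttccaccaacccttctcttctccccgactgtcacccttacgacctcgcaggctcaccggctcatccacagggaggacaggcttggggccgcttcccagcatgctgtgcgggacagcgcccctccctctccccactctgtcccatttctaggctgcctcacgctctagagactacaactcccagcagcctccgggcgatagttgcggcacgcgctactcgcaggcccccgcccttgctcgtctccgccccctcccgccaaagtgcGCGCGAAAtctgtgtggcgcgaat

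The match went with no larger change. In miR-27 Tg against WT the genes with a match had a median log2 fold change of 0.81 and those without one 0.86, and the ranges were 0.39 to 1.47 and 0.23 to 2.14. The medians were 0.34 and 0.52 in cluster Tg against WT. Rrm2, Tyms, Tk1, Ccne1 and E2f1, genes long described as regulated by E2F, held none of the 4 spellings in their windows, which says only that these letters are not there.

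**Figure D1:**
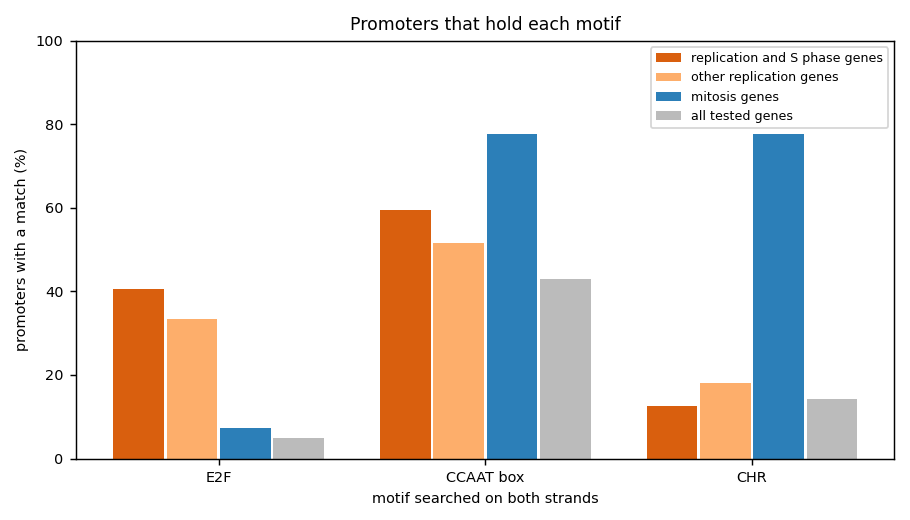
Share of genes with a promoter window (%, y axis) whose window holds an E2F, CCAAT box or CHR motif on either strand, for the 32 replication and S phase genes with a window, other replication genes, mitosis genes and all tested genes. The E2F bar is high for both groups of replication genes (40.6% and 33.3%), while the CHR bar is high for mitosis genes alone among the groups shown (77.8%).

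Depth, estimated from the spacing of low RPKM values, was 20.6 to 31.96 megareads per library, a rough estimate because only 12.4% to 17.7% of those values fell within 0.02 reads of a whole read. At that depth the least covered of the 39 genes, Ccne2, rested on about 105 reads in its lowest library, and differences between libraries exceeded counting error. Libraries had 10710 to 11121 genes at 1 RPKM or more. Squared differences between libraries of a genotype had a median 9.18 to 31.2 times that of counting error alone, at the estimated depth. T cell marker genes summed to 1836 to 2240 RPKM and Treg markers to 1327 to 2140 in all libraries, none at 0, so the labelled cell type was present throughout.

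The libraries of some genotypes were uneven. As a geometric mean over the 39 genes, WT libraries 1 to 3 stood at 10.8, 13.4 and 14.2 RPKM, DKO at 10.3, 13.1 and 16.3 and miR-24 Tg at 14.3, 12.3 and 16.6. The cluster Tg libraries stood at 17.9, 17.3 and 18.3 and the miR-23 Tg libraries at 18.2, 18.6 and 17.4. In miR-27 Tg the values were 17.5, 29.3 and 29.0. So miR-27 Tg library 1 lay among the cluster Tg and miR-23 Tg libraries, although its Mir27a level (76991 RPKM) was close to that of library 2 (79108), while libraries 2 and 3 lay above every other library. All 39 genes had their highest value in one of these: 19 in library 2 and 20 in library 3. The lowest value fell in DKO library 1 for 20 genes and in WT library 1 for 10.

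**Figure D2:**
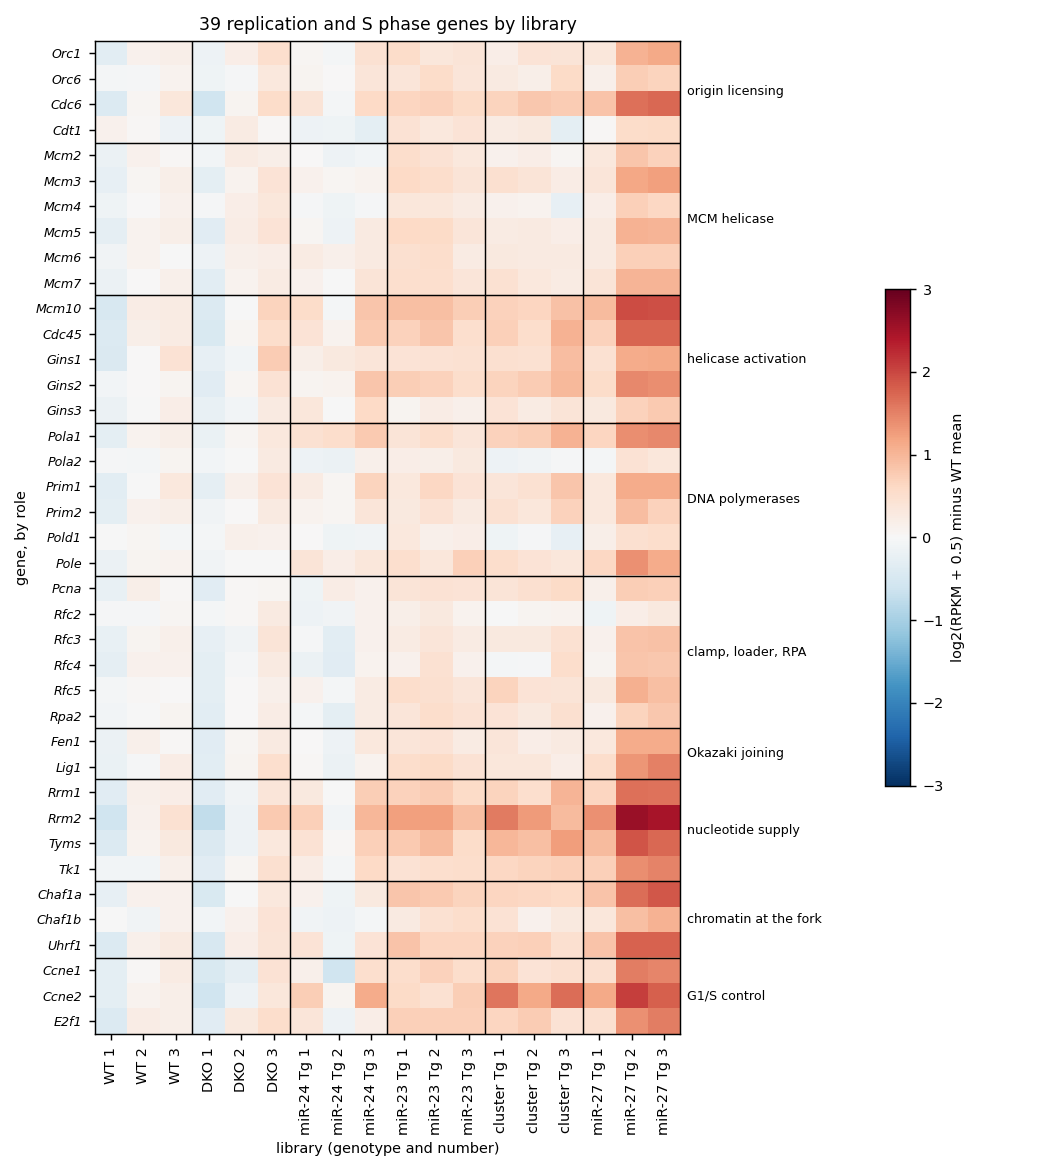
Level of each of the 39 genes (rows, by role) in each of the 18 libraries (columns), as log2(RPKM + 0.5) minus the WT mean of that gene (colour scale from -3 to 3). The darkest columns are miR-27 Tg libraries 2 and 3, and miR-27 Tg library 1 resembles the miR-23 Tg and cluster Tg columns in depth of colour.

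Levels in Treg spanned a wide range. Averaged over the 18 libraries, Pcna, the sliding clamp, was the most abundant of the 39 at 96.4 RPKM, followed by the helicase subunit Mcm6 at 84.7, and Orc1, the large subunit of the origin recognition complex, was the least abundant at 2.27. The group mean was highest in miR-27 Tg for 38 of the 39 genes, the exception being the clamp loader subunit Rfc2, which was highest in miR-23 Tg. It was lowest in WT for 19, in miR-24 Tg for 9, in DKO for 9 and in cluster Tg for 2 (Pola2 and Pold1). As mean log2(RPKM + 0.5) over the 39 genes, the order was WT (3.72), DKO (3.76), miR-24 Tg (3.89), cluster Tg (4.196), miR-23 Tg (4.21) and miR-27 Tg (4.65). The libraries of WT, DKO and miR-24 Tg overlapped in this mean, as did those of cluster Tg, miR-23 Tg and miR-27 Tg. Each library of the latter 3 genotypes lay above each library of the former 3.

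An excess of miR-27 alone was set against WT in miR-27 Tg, and here replication genes of every role were higher. Of the 39, 35 rose and 0 fell (limma, adjusted p under 0.05), while 15.9% of all tested genes were called higher and 12.7% lower. The median log2 fold change was 0.85, against 0.01 over all tested genes, and 16 of the genes rose by at least 2-fold, as 729 of the 11520 tested genes were higher by that much. In 33 of the 39 the miR-27 Tg libraries lay above all WT libraries, as in 22.8% of all tested genes. The 4 genes that did not pass were Rfc4, Cdt1, Pola2 and Rfc2. In a bulk sample, more cells in S phase and more RNA per cell cannot be told apart.

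Origin licensing comes first in the cycle. Cdc6, the loader of the helicase, stood at 1.73, 2.57 and 3.23 RPKM in WT libraries 1 to 3 and at 4.80, 8.77 and 9.27 in miR-27 Tg (2.66-fold higher, log2 fold change 1.41 ± 0.28, adjusted p = 0.00236). Every miR-27 Tg library was above every WT library. Cdt1, its partner, which is removed from cells once S phase begins, stood at 23.2, 21.7 and 19.1 in WT and 21.97, 31.6 and 31.9 in miR-27 Tg (log2 fold change 0.39 ± 0.16, adjusted p = 0.0831). These groups overlapped, because miR-27 Tg library 1 fell within the WT range. The origin recognition subunits Orc1 (1.79-fold, adjusted p = 0.0121) and Orc6 (1.44-fold, adjusted p = 0.0246) were higher.

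All 6 subunits of the MCM helicase, which unwinds DNA as a ring, rose in miR-27 Tg, from 1.43-fold (Mcm4) to 1.88-fold (Mcm3). Mcm6, the most abundant of them, stood at 64.9, 75.4 and 69.4 RPKM in WT and 84.4, 115 and 114 in miR-27 Tg (log2 fold change 0.56 ± 0.12, adjusted p = 0.00364). Mcm3, the one that changed most, stood at 35.1, 43.5 and 46.6 in WT and 53.5, 92.5 and 97.2 in miR-27 Tg (log2 fold change 0.91 ± 0.20, adjusted p = 0.00423). For both genes the groups did not overlap, and library 1 of miR-27 Tg was the closest to WT. The folds of the others were 1.53-fold for Mcm2, 1.72-fold for Mcm5 and 1.75-fold for Mcm7. The levels of the 6 subunits, which assemble in equal numbers, lay between 33.1 ± 3.63 (SD, n = 3; Mcm7) and 69.9 ± 5.28 RPKM (Mcm6) in WT.

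The genes that switch the helicase on all rose, with a median log2 fold change of 1.13. Mcm10, which helps the loaded helicase to start, stood at 1.70, 3.07 and 3.16 RPKM in WT and at 5.46, 11.4 and 11.2 in miR-27 Tg (3.07-fold, log2 fold change 1.62 ± 0.31, adjusted p = 0.00185). Gins2, a GINS subunit and the most abundant of the role, stood at 8.56, 9.20 and 9.65 and 13.6, 25.6 and 24.8 (log2 fold change 1.13 ± 0.24, adjusted p = 0.00375). Neither gene's groups overlapped. Cdc45 rose 2.63-fold, Gins1 1.87-fold and Gins3 1.51-fold.

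Among the polymerase genes 5 of 6 rose. Pold1, the catalytic subunit of lagging-strand polymerase delta and the most abundant of the role, stood at 21.7, 22.8 and 20.7 RPKM in WT and 24.6, 30.6 and 31.5 in miR-27 Tg (log2 fold change 0.40 ± 0.09, adjusted p = 0.00592). Pola1, the catalytic subunit of the polymerase that primes synthesis, changed most: 3.37, 4.65 and 4.90 in WT and 6.93, 12.1 and 12.3 in miR-27 Tg (2.23-fold, log2 fold change 1.16 ± 0.20, adjusted p = 0.000921). Both sets of libraries were apart from WT. Its accessory subunit Pola2, which sits in the same complex, stood at 24.2 ± 4.17 against 20.3 ± 1.08 (log2 fold change 0.23 ± 0.12, adjusted p = 0.177). The primase subunits Prim1 (1.81-fold) and Prim2 (1.56-fold) and Pole (2.05-fold, adjusted p = 0.00033), the leading-strand polymerase, were higher.

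The clamp, its loader and the single-strand binding protein changed least. Pcna stood at 68.8, 90.7 and 81.95 RPKM in WT and 88.5, 134 and 132 in miR-27 Tg (log2 fold change 0.54 ± 0.16, adjusted p = 0.0201), with library 1 of miR-27 Tg within the WT range. Rfc5, the loader subunit that changed most, stood at 11.6, 12.4 and 12.1 and 14.7, 25.6 and 22.8 (log2 fold change 0.74 ± 0.17, adjusted p = 0.00447), without overlap. Rfc3 rose 1.54-fold and Rpa2, which coats single-stranded DNA, 1.44-fold. Rfc4 (log2 fold change 0.57 ± 0.22, adjusted p = 0.0687) and Rfc2 (log2 fold change 0.12 ± 0.11, adjusted p = 0.468) did not pass.

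Fen1, the nuclease that trims Okazaki fragments, stood at 18.1, 22.9 and 21.2 RPKM in WT and 25.7, 45.4 and 45.5 in miR-27 Tg (log2 fold change 0.85 ± 0.20, adjusted p = 0.00639). Lig1, which seals them, stood at 16.1, 18.1 and 21.8 and 26.8, 47.1 and 53.6 (2.17-fold, log2 fold change 1.12 ± 0.22, adjusted p = 0.00227). Both were apart from WT in all libraries.

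Nucleotide supply held the steepest rise of all. Rrm2, the regulated subunit of ribonucleotide reductase, which makes the building blocks of DNA, stood at 10.6, 17.7 and 22.4 RPKM in WT and at 42.5, 99.7 and 91.3 in miR-27 Tg (4.41-fold, log2 fold change 2.14 ± 0.41, adjusted p = 0.00171). Its partner subunit Rrm1 rose 2.49-fold, the thymidylate synthase gene Tyms 2.86-fold (adjusted p = 0.00092) and the thymidine kinase gene Tk1 2.29-fold. The level of Rrm2 relative to other genes also moved: below Rrm1 in the mean of WT (16.9 ± 5.96 against 20.1 ± 4.03), it was above it in the mean of miR-27 Tg (77.8 ± 30.9 against 52.5 ± 18.4).

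Genes of chromatin copying rose as well. Uhrf1, which recognises hemimethylated DNA behind the fork, stood at 9.55, 14.4 and 15.7 RPKM in WT and 23.7, 45.7 and 45.6 in miR-27 Tg (log2 fold change 1.47 ± 0.27, adjusted p = 0.00138). Chaf1a (2.76-fold) and Chaf1b (1.69-fold), subunits of the complex that deposits histones on new DNA, were higher. Of the genes that control entry into S phase, cyclin E1, Ccne1, stood at 5.63, 7.21 and 8.44 and 9.93, 21.1 and 20.1 (log2 fold change 1.15 ± 0.31, adjusted p = 0.0123) and cyclin E2, Ccne2, at 1.71, 2.44 and 2.59 and 5.47, 10.9 and 8.86 (3.17-fold, log2 fold change 1.66 ± 0.30, adjusted p = 0.00105). The transcription factor gene E2f1 rose 2.19-fold. None of these libraries overlapped between the groups.

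**Figure D3:**
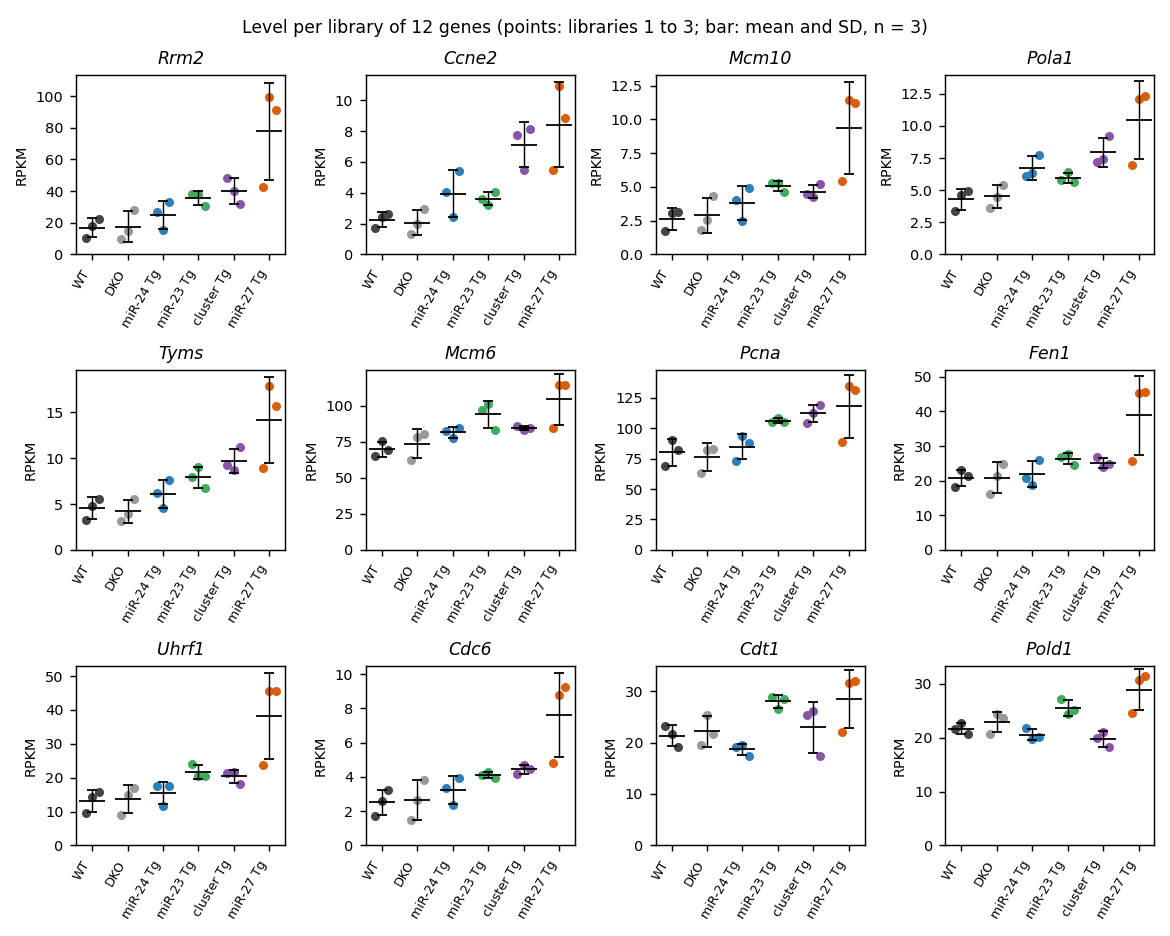
Level in RPKM (y axis from 0) of 12 of the genes in each library by genotype, with points for libraries 1 to 3, a bar at the mean and whiskers of 1 SD (n = 3). In miR-27 Tg the first point lies below the other 2 for Rrm2 (42.5 against 99.7 and 91.3) and in the other panels shown.

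The size of the miR-27 Tg result rested on libraries 2 and 3. Without miR-27 Tg library 1, 38 genes passed and the median log2 fold change was 1.12. With library 1 as the only miR-27 Tg library the median was 0.34. Without WT library 1 or without miR-27 Tg library 2, 23 passed. With only miR-27 Tg and WT in the model 21 passed. Over all 11520 tested genes 1830 were called higher with every library, and 1884 without miR-27 Tg library 1. There were 1366 without WT library 1, 1369 without miR-27 Tg library 2 and 1355 with only these 2 genotypes. Of the 35 called genes, 23 passed whichever library of either group was left out.

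B cell markers were also higher in miR-27 Tg, and those of other cells in part. All 16 tested B cell markers were called higher in miR-27 Tg than in WT. Called higher too were 2 of 2 tested germinal centre B cell markers, 2 of 4 of plasma cells, 5 of 11 of myeloid cells, 2 of 6 of CD8 T and NK cells and 0 of 4 erythroid markers, of which 1 had an unadjusted p under 0.05. Their sum, over 17 markers of which none was at 0 in any library, was 419, 498 and 818 RPKM in miR-27 Tg libraries 1 to 3 and 131 to 195 in WT. The most abundant of them were Cd74 and H2-Aa. Germinal centre B cell markers, a list of 5 led by S1pr2 and Mybl1, summed to 10.7 to 14.1 RPKM against 6.93 to 8.09. Plasma cell markers, led by Igj and Mzb1, summed to 9.79, 28.5 and 107 RPKM against 2.12 to 3.58, and erythroid markers, led by Hbb-b1 and Hba-a1, to 2.67, 152 and 56.9 against 1.22 to 19.6. Myeloid markers, led by Cst3 and Fcer1g, summed to 122 to 239 against 101 to 111, and those of CD8 T and NK cells, led by Nkg7 and Cd8b1, to 53.5 to 124 against 46.1 to 54.5. Library 1 of miR-27 Tg lay within the WT range for the erythroid list and for that of CD8 T and NK cells. With the mean log2 level of the B cell markers as a covariate 0 of the 39 genes passed, and the median log2 fold change was 0.44. Over all 11520 tested genes this covariate left 299 called higher and 180 lower, from 1830 and 1464 without it. The covariate lay at 1.15 to 1.35 in WT and at 2.17 to 3.92 in miR-27 Tg. These ranges did not overlap, so covariate and genotype cannot be fully told apart in that model. The part of other cells in the result was not tested. Listed at 0 in all WT libraries were the germinal centre marker Gcsam and the plasma cell marker Tnfrsf17. The T cell markers Cd3g and Lck led a list that summed to 1919 to 2145 RPKM in miR-27 Tg and 2014 to 2200 in WT, and the Treg list, led by Il2rb and Ctla4, to 1327 to 1883 and 1865 to 2090, with Il2rb called lower in miR-27 Tg (log2 fold change -0.60 ± 0.13, adjusted p = 0.00309).

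Cluster Tg mice carry miR-23, miR-24 and miR-27 in excess together. Of the 39 genes 9 rose and 0 fell against WT, where 13.8% of tested genes were called higher and 10.5% lower. In 30 the libraries lay above WT without overlap, as in 22.6% of tested genes, and 21 were higher at an unadjusted p under 0.05, as were 2365 of the 11520 tested genes. The median log2 fold change was 0.42, against 0.02 over all tested genes. The 3 largest fold changes were those of Ccne2, Rrm2 and Tyms. Ccne2 stood at 7.75, 5.46 and 8.17 RPKM in the cluster Tg libraries (7.13 ± 1.46 against 2.25 ± 0.473 in WT; log2 fold change 1.47 ± 0.30, adjusted p = 0.00283). Rrm2 stood at 48.3, 40.1 and 31.7 (40.02 ± 8.31 against 16.9 ± 5.96; log2 fold change 1.26 ± 0.41, adjusted p = 0.0364) and Tyms at 9.28, 8.74 and 11.2 (9.75 ± 1.31 against 4.53 ± 1.20; log2 fold change 1.05 ± 0.26, adjusted p = 0.0107). All 9 of those libraries' values were above the WT values of the same gene. Pola1 (1.77-fold), Gins2 (1.74-fold), Tk1 (1.59-fold), Prim2 (1.41-fold), Rfc5 (1.40-fold) and Pcna (1.40-fold) completed the calls.

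The 3 lowest fold changes of cluster Tg against WT did not pass. Pold1 stood at 19.7 ± 1.44 RPKM against 21.7 ± 1.04 (log2 fold change -0.14 ± 0.09, adjusted p = 0.315), Pola2 at 18.8 ± 0.822 against 20.3 ± 1.08 (log2 fold change -0.10 ± 0.12, adjusted p = 0.589) and Mcm4 at 39.5 ± 5.70 against 39.4 ± 3.52 (log2 fold change -0.00 ± 0.13, adjusted p = 0.988). Leaving out 1 library of either group left 2 to 6 calls, and only Pola1 and Ccne2 passed whichever was left out. Over all tested genes 865 to 1644 were then called higher. The cluster Tg B cell markers summed to 255 to 369 RPKM, with 1 of 16 called, and 3 of the 39 genes passed once the B cell covariate was added. With that covariate 1270 of the 11520 tested genes were called higher, from 1592 without it. Plasma cell markers summed to 5.96 to 16.4 RPKM in cluster Tg against 2.12 to 3.58 in WT, with 0 of 4 called, and myeloid markers to 136 to 168 against 101 to 111, with 1 of 11 called. The part of other cells in the result was not tested.

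In miR-23 Tg 0 of the 39 genes passed in either direction, by limma, while 0.156% of tested genes were called higher and 0.2% lower. The values were nevertheless above WT: 27 were higher at an unadjusted p under 0.05, as were 847 of the 11520 tested genes, and in 35 of the 39 the libraries did not overlap with WT, as in 14.1% of tested genes. The median log2 fold change was 0.44, and over all tested genes 0.01. With only miR-23 Tg and WT in the model 2 genes passed, where 118 of the 11520 tested genes were called higher. With the other settings tried 0 of the 39 passed. The 3 largest values were those of Rrm2 at 38.5, 38.3 and 30.8 RPKM (35.9 ± 4.36 against 16.9 ± 5.96; log2 fold change 1.12 ± 0.41, adjusted p = 0.241), Mcm10 (5.05 ± 0.362 against 2.64 ± 0.816; log2 fold change 0.85 ± 0.31, adjusted p = 0.242) and Chaf1a (11.7 ± 0.762 against 6.74 ± 0.997; log2 fold change 0.76 ± 0.23, adjusted p = 0.158). The smallest was that of Gins3 (log2 fold change 0.15 ± 0.17), and none was below 0. The B cell markers summed to 259 to 388 RPKM, with 0 of 16 called and 14 at an unadjusted p under 0.05, and the median with the B cell covariate was 0.19. Plasma cell markers summed to 14.9 to 28.6 RPKM against 2.12 to 3.58 in WT and myeloid markers to 131.0 to 181.5 against 101 to 111, with 0 of 4 and 0 of 11 called. Treg markers were lower in 5 of 7 without overlap with WT, with 0 called and a median log2 fold change of -0.41. The part of these in the values of the 39 genes was not tested.

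In miR-24 Tg 0 of the 39 genes passed, by limma, where 4.6% of tested genes were called higher and 4.38% lower. At an unadjusted p under 0.05 there were 2 higher and 0 lower (1422 and 1347 of the 11520 tested genes), and 4 did not overlap with WT, against 15.9% of tested genes. The median log2 fold change was 0.15, against 0.01 over all tested genes, and 0.02 without WT library 1. Ccne2 had the largest value, 4.03, 2.39 and 5.42 RPKM (3.95 ± 1.51 against 2.25 ± 0.473; log2 fold change 0.65 ± 0.30, adjusted p = 0.196), and library 2 lay within the WT range. Pola1 stood at 6.72 ± 0.912 against 4.31 ± 0.820 (log2 fold change 0.59 ± 0.20, adjusted p = 0.0828) and Rrm2 at 25.02 ± 8.92 against 16.9 ± 5.96 (log2 fold change 0.55 ± 0.41, adjusted p = 0.453). The lowest values were those of Cdt1 (18.7 ± 1.14 against 21.4 ± 2.07; log2 fold change -0.19 ± 0.16, adjusted p = 0.531), Rfc4 (14.6 ± 2.48 against 16.1 ± 2.49; log2 fold change -0.14 ± 0.22, adjusted p = 0.765) and Chaf1b (10.2 ± 0.332 against 10.98 ± 0.935; log2 fold change -0.10 ± 0.16, adjusted p = 0.761). None of these passed the threshold.

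The libraries of miR-24 Tg held B cell markers at 862, 350.0 and 231 RPKM, and 7 of 16 markers were called higher than in WT. Library 1, at 862, had a geometric mean of 14.3 RPKM over the 39 genes. Library 2, at 350.0, had one of 12.3 and library 3, at 231, one of 16.6. In miR-27 Tg, library 1 had both the lowest marker sum of its genotype (419) and the lowest geometric mean (17.5). Myeloid markers summed to 145 to 344 RPKM against 101 to 111 in WT, with 3 of 11 called higher. Of the plasma cell markers 1 of 4 was called higher, and of the Treg markers 2 of 7 were called lower. The part of other cells in the values of the 39 genes was not tested.

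Loss of both clusters went with no called change. In DKO 0 of the 39 genes passed, by limma, at an unadjusted p under 0.05 there were 0 higher and 0 lower, and 0 lay above WT without overlap (3.32% of tested genes did). Over all tested genes 0.0174% were called higher and 0% lower, and 0 of the 39 passed under any setting tried. The median log2 fold change was 0.05, and over all tested genes -0.00. The largest values were those of Orc1 (1.98 ± 0.556 against 1.68 ± 0.400 RPKM; log2 fold change 0.18 ± 0.22, adjusted p = 1), Mcm4 (44.5 ± 5.61 against 39.4 ± 3.52; log2 fold change 0.17 ± 0.13, adjusted p = 1) and E2f1 (5.45 ± 1.71 against 4.76 ± 1.17; log2 fold change 0.16 ± 0.27, adjusted p = 1). The lowest were those of Ccne2 (2.06 ± 0.824 against 2.25 ± 0.473; log2 fold change -0.13 ± 0.30, adjusted p = 1), Ccne1 (6.74 ± 2.51 against 7.10 ± 1.41; log2 fold change -0.11 ± 0.31, adjusted p = 1) and Tyms (4.23 ± 1.25 against 4.53 ± 1.20; log2 fold change -0.09 ± 0.26, adjusted p = 1). Rrm2 ran from 9.46 to 28.3 RPKM over the DKO libraries and from 10.6 to 22.4 over WT.

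**Figure D4:**
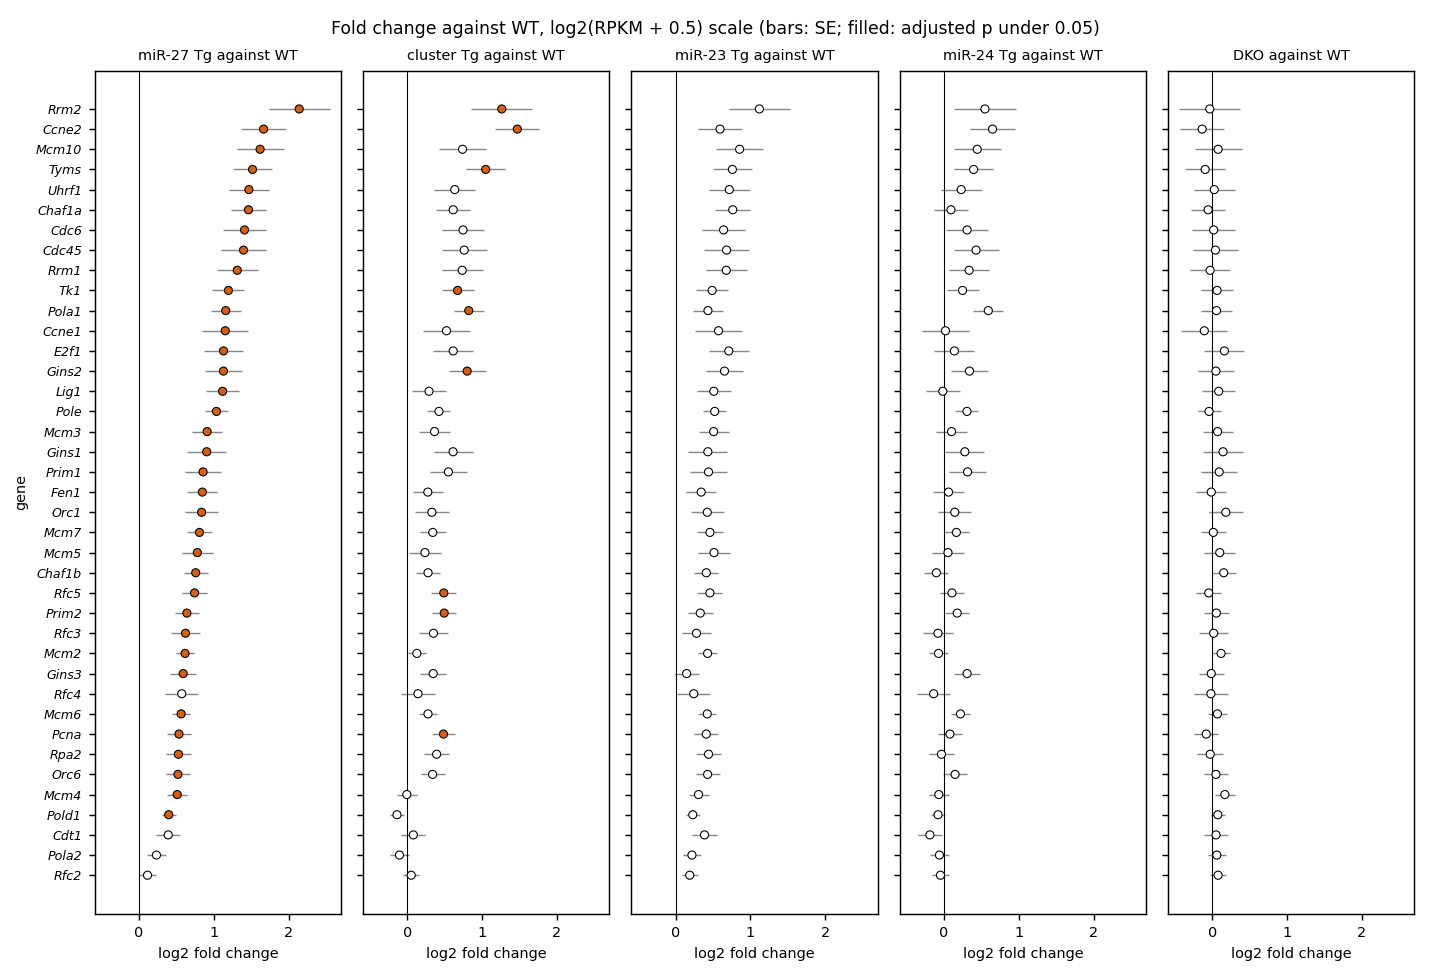
Log2 fold change against WT on the log2(RPKM + 0.5) scale (x axis) of each gene (y axis, ordered by miR-27 Tg) in the 5 comparisons with WT, with bars of 1 SE and filled points where the adjusted p is under 0.05. Filled points number 35 for miR-27 Tg and 9 for cluster Tg, and the points of DKO lie around 0.

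The 5 comparisons share the WT libraries, so the transgenic groups were also compared with each other. Against miR-24 Tg, 30 of the 39 genes were higher in miR-27 Tg and 0 lower (13.2% and 10.9% of tested genes), with a median log2 fold change of 0.71. Chaf1a (2.58-fold, adjusted p = 0.00103), Mcm2 (1.61-fold, adjusted p = 0.00144) and Lig1 (2.19-fold, adjusted p = 0.00301) were among them. Of the 16 B cell markers 0 were called between these groups, and 0 had an unadjusted p under 0.05, while 15 of the 16 were higher in miR-27 Tg, with a median log2 fold change of 0.37. Without miR-27 Tg library 2 or 3, 10 of the 39 genes passed, and without miR-24 Tg library 2, 12 passed. Over all tested genes 937, 946 and 1009 were then called higher, from 1518 with every library.

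Against miR-23 Tg, 5 of the 39 genes were higher in miR-27 Tg and 0 lower, with a median of 0.42. Over all tested genes 12.4% were called higher and 10.9% lower. The share of the 39 genes called higher was thus about the same as that of all tested genes. The 5 genes were Ccne2 (2.10-fold, adjusted p = 0.0178), Pola1 (1.65-fold), Tk1 (1.63-fold), Chaf1a (1.62-fold) and Pole (1.43-fold). The count was 29 without miR-27 Tg library 1, 0 without library 2 or library 3, and 1 or 2 without a library of miR-23 Tg. Over all tested genes 1497 were called higher without miR-27 Tg library 1, and 1037 and 1033 without library 2 or 3. With library 1 alone the median was -0.08.

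Mir27a stood at 13710 to 24076 RPKM in cluster Tg, below its 50014 to 79108 in miR-27 Tg. The dose of miR-27 and the excess of miR-23 and miR-24 therefore cannot be told apart when these genotypes are compared. Between cluster Tg and miR-27 Tg, 6 genes were lower in cluster Tg and 0 higher (3.35% and 3.5% of tested genes), with a median log2 fold change of -0.48. They were Pold1 (log2 fold change -0.53 ± 0.09, adjusted p = 0.00548), Mcm2 (-0.49 ± 0.12), Mcm4 (-0.52 ± 0.13), Pole (-0.61 ± 0.15), Lig1 (-0.83 ± 0.22) and Chaf1a (-0.85 ± 0.23). In 11 of the 39 genes all cluster Tg libraries lay below all miR-27 Tg libraries, as in 1326 of the 11520 tested genes. The 6 called genes were among the 11. For cyclin E2 the libraries overlapped: Ccne2 stood at 7.13 ± 1.46 and 8.42 ± 2.75 RPKM (log2 fold change -0.19 ± 0.30, adjusted p = 0.732). The count was 24 without miR-27 Tg library 1 and 1 without library 2 or 3, and 1 or 2 without a cluster Tg library. Over all tested genes 668 were lower without miR-27 Tg library 1, and 137 and 146 without library 2 or 3. With miR-27 Tg library 1 alone the median was 0.04.

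Cluster Tg against DKO set gain against loss of the same microRNAs. Here 10 genes were higher in cluster Tg and 0 lower (15.1% and 11.6% of tested genes), with a median of 0.44: Ccne2 (3.04-fold, adjusted p = 0.00139), Rrm2 (2.45-fold), Tyms (2.21-fold), Pola1, Gins2, Chaf1a, Tk1, Pcna, Rfc5 and Pole. Without DKO library 3, the highest of that genotype, 17 passed, and without DKO library 1, 2 passed. Over all tested genes 1764 and 1267 were then called higher. Without a cluster Tg library 4, 5 or 7 passed, and without DKO library 2, 4 passed.

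The 39 genes moved together over the libraries. Pearson's r of a gene with the mean of the other 38 over the 18 libraries had a median of 0.95, and 34 of 39 exceeded 0.8. With each genotype's mean removed the median was 0.91 and 33 exceeded 0.8, so the genes also moved together among libraries of one genotype. Cdt1 (0.60 over all, 0.29 within genotypes) and Pold1 (0.65 and 0.61) followed the others least. The libraries share their RNA preparation within each sample, and these values are descriptions.

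The genes that differed most from WT were also those that varied most among libraries outside the contrast. Across the 39 genes, the fold change in miR-27 Tg against WT had a Spearman rho of 0.82 with the SD of the log2 level over the 3 DKO libraries, which did not enter that fold change, and of -0.62 with the mean RPKM in DKO. In cluster Tg against WT the values were 0.70 and -0.63.

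Of all genes that are not among the 39, those whose log2 level followed their mean most closely over the 18 libraries were Ccnb2 (r = 0.985), Plk1 (0.984) and Cdca8 (0.982), which act in mitosis, and Asf1b (0.981), a histone chaperone, and Rad54l (0.981), a DNA repair gene. Plk1 stood at 3.02 ± 0.957 RPKM in WT and 17.8 ± 9.08 in miR-27 Tg (log2 fold change 2.25 ± 0.40), and Asf1b at 12.05 ± 4.15 and 44.7 ± 18.5 (1.80 ± 0.39).

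The mitosis genes, which act after S phase, were the nearest point of comparison. All 30 rose in miR-27 Tg against WT, with a median log2 fold change of 2.23 where the replication genes had 0.85, and 21 rose in cluster Tg (1.32 against 0.42). Mki67, a marker of cycling cells, stood at 62.1 ± 26.7 RPKM against 9.31 ± 3.22 in WT (log2 fold change 2.62 ± 0.33, adjusted p = 0.000128), and Anln, Prc1 and Kif4, genes of cell division, rose with log2 fold changes of 2.36 ± 0.35, 2.55 ± 0.39 and 2.18 ± 0.34. In miR-23 Tg 0 of the 30 passed, with 29 at an unadjusted p under 0.05 and a median of 1.30. In miR-24 Tg 0 passed and the median was 0.72, with Mki67 at 19.5 ± 6.41 RPKM (adjusted p = 0.0685) and Kif15 at 5.70 ± 2.198 (adjusted p = 0.0869). In DKO 0 passed and the median was -0.08.

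The distance between both programmes varied over the libraries. The mean log2 level of the mitosis genes minus that of the replication genes lay between -2.16 and -1.60 in WT libraries and between -2.14 and -1.70 in DKO. It lay between -1.08 and -1.05 in miR-23 Tg, between -1.19 and -0.86 in cluster Tg and between -1.82 and -0.87 in miR-24 Tg. In miR-27 Tg it was -1.02, -0.44 and -0.44 in libraries 1 to 3. In 5 of the 6 genotypes the order of the libraries in this gap was their order in the replication mean, with the narrowest gap in the library highest in replication genes, and miR-23 Tg was the exception. The difference between the lists' fold changes was not tested.

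**Figure D5:**
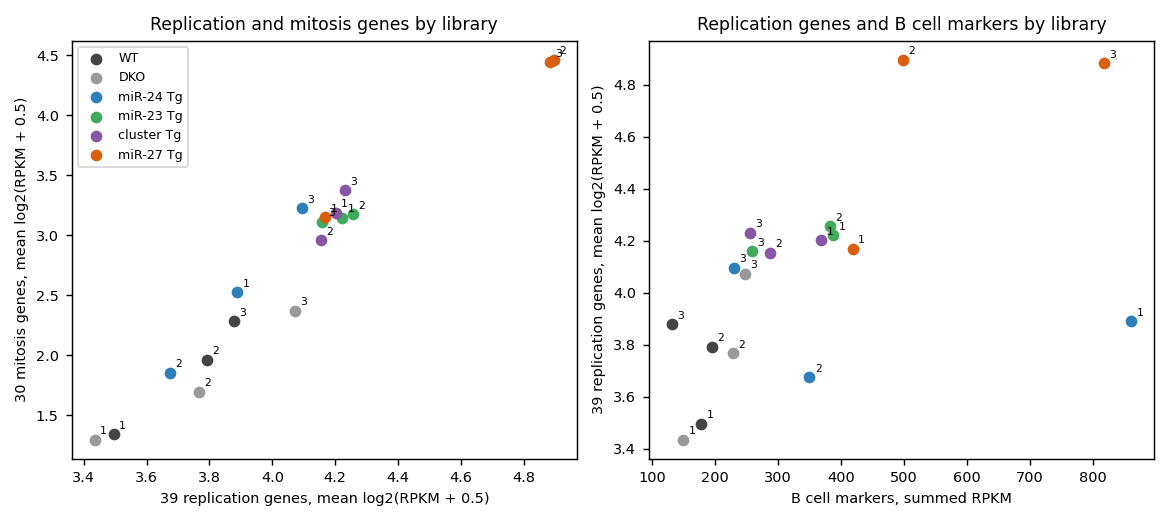
Left, mean log2(RPKM + 0.5) of the 30 mitosis genes (y axis) against that of the 39 replication genes (x axis) in each library; right, the replication mean (y axis) against the summed RPKM of the B cell markers (x axis). Colours give the genotype and numbers the library. The libraries form one rising band on the left. On the right miR-24 Tg library 1 has the highest marker sum (862 RPKM) at a replication mean of 3.89. Of miR-27 Tg, library 1 (419 RPKM) lies at 4.17 and library 3 (818 RPKM) at 4.88.

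Other genes of replication that are not among the 39 rose in miR-27 Tg in 25 of 41 cases and fell in 1, against 15.9% and 12.7% of all tested genes, with a median log2 fold change of 0.66. Brca1, which protects forks (log2 fold change 1.60 ± 0.23, adjusted p = 0.000281), Clspn, a fork checkpoint adaptor (1.93 ± 0.32), and Ticrr, which helps to fire origins (1.22 ± 0.20), were the rises with the smallest p. The exception was Orc5, an origin recognition subunit, at 14.3 ± 0.652 RPKM against 20.6 ± 0.763 (log2 fold change -0.51 ± 0.08, adjusted p = 0.000685). In cluster Tg 6 rose and 2 fell (Orc5, log2 fold change -0.30 ± 0.08, adjusted p = 0.0184, and Mcmbp, an MCM binding protein, log2 fold change -0.30 ± 0.10, adjusted p = 0.0446), where over all tested genes 13.8% rose and 10.5% fell. In miR-24 Tg 0 of the 41 passed, with Rfc1 at 19.6 ± 0.644 against 16.9 ± 0.795 RPKM (adjusted p = 0.165) and Brca1 at 2.96 ± 0.803 against 1.91 ± 0.282 (adjusted p = 0.203), and 0 passed in miR-23 Tg and DKO.

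Regulators of the G1/S step moved in both directions. In miR-27 Tg 13 of 23 rose and 2 fell, with a median of 0.52, where 15.9% of all tested genes rose and 12.7% fell. Rbl1, a pocket protein that holds E2F in check (log2 fold change 0.56 ± 0.09, adjusted p = 0.000429), Tfdp1, the partner of E2F (0.79 ± 0.13), and E2f7 and E2f8, E2F repressors (1.60 ± 0.27 and 1.97 ± 0.37), were the rises with the smallest p. Myc fell from 80.01 ± 9.23 to 51.2 ± 9.70 RPKM (log2 fold change -0.65 ± 0.13, adjusted p = 0.00187) and E2f5, a repressor E2F, from 8.05 ± 0.999 to 5.17 ± 0.984. In cluster Tg 4 rose and 2 fell, the latter Myc (50.04 ± 5.46 RPKM) and E2f4 (log2 fold change -0.34 ± 0.07, adjusted p = 0.00360), against 13.8% and 10.5% of all tested genes. In miR-24 Tg, where 4.38% of all tested genes fell, the same 2 genes fell and 0 rose: E2f4, a further repressor E2F, from 71.4 ± 0.589 to 53.7 ± 2.45 (log2 fold change -0.41 ± 0.07, adjusted p = 0.00326) and Myc to 59.3 ± 3.48 (log2 fold change -0.43 ± 0.13, adjusted p = 0.0493). In miR-23 Tg and DKO 0 of the 23 passed.

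Some inhibitors of cyclin-dependent kinases, which oppose entry into S phase, were higher as well. In miR-27 Tg, where 15.9% of all tested genes rose, 3 of 6 tested rose and 0 fell: Cdkn2c from 6.37 ± 0.758 to 32.5 ± 9.03 RPKM (log2 fold change 2.23 ± 0.20, adjusted p = 1.31e-05), Cdkn2a from 0.344 ± 0.207 to 4.43 ± 1.68 (log2 fold change 2.52 ± 0.44, adjusted p = 0.000932) and Cdkn1a from 5.08 ± 3.54 to 19.2 ± 4.65 (log2 fold change 2.13 ± 0.69, adjusted p = 0.0316). Cdkn1c stood at 1.99 ± 0.423 against 1.56 ± 0.368 RPKM (adjusted p = 0.289). The same 3 genes rose in cluster Tg (13.8% of all tested genes), with Cdkn2c at 27 ± 6.03 RPKM, and Cdkn2c rose in miR-24 Tg, where 4.6% of all tested genes did (12.6 ± 0.895 RPKM, log2 fold change 0.94 ± 0.20, adjusted p = 0.0109). Cdkn1b, the most abundant inhibitor, stood at 106 ± 8.31 RPKM in miR-27 Tg, 97.9 ± 14.5 in miR-24 Tg (adjusted p = 0.168) and 113 ± 2.10 in WT.

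Replication-dependent histone genes, whose messages end in a stem-loop instead of a poly(A) tail, summed to 3.56 to 17.6 RPKM per library. Of 15 listed, 5 were tested, and in miR-27 Tg 1 rose, Hist1h2bj, from 0.676 ± 0.300 to 2.87 ± 0.934 RPKM (adjusted p = 0.0106). Hist1h4d fell in miR-24 Tg (log2 fold change -0.84 ± 0.21, adjusted p = 0.0212) and in cluster Tg (log2 fold change -0.81 ± 0.21, adjusted p = 0.0117), and stood at 3.07 ± 0.690 against 1.88 ± 0.0912 RPKM in miR-27 Tg (adjusted p = 0.0544).

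Several of the 39 genes share exonic sequence with a gene on the opposite strand in GENCODE M21, and the labels do not say that strand was kept in the libraries or the counting. The overlap covered 78.8% of the exonic bases of Fen1 (Gm10143), 70.7% of Gins2 (Gse1), 33.6% of Chaf1a (Ubxn6), 19.1% of Rfc2 (Lat2) and 10.5% of Ccne2 (Ints8), so reads of each pair cannot be fully told apart. The partners of Gins2 and Chaf1a were not higher along with them: in miR-27 Tg against WT, Gse1 stood at 16.6 ± 2.02 against 22.9 ± 3.79 RPKM (log2 fold change -0.45 ± 0.18, adjusted p = 0.0726) and Ubxn6 fell from 46.8 ± 4.46 to 39.1 ± 2.21 (log2 fold change -0.25 ± 0.08, adjusted p = 0.0321). Lat2 rose (log2 fold change 0.67 ± 0.21, adjusted p = 0.0274), while Rfc2 did not pass. Ints8, the partner of Ccne2, did not pass in miR-27 Tg (log2 fold change 0.17 ± 0.09, adjusted p = 0.165). In cluster Tg it did not pass either (0.19 ± 0.09, adjusted p = 0.121), and in miR-24 Tg it rose (0.31 ± 0.09, adjusted p = 0.0387). Smaller shares were covered for Rfc5 (15.4%, Wsb2), Rfc4 (13.4%, Eif4a2), Orc1 (11.9%, Gm12743) and Mcm7 (10.8%, Ap4m1). In cluster Tg, where Rfc5 rose, Wsb2 rose as well (21.2 ± 3.80 against 16.5 ± 1.08 RPKM; log2 fold change 0.34 ± 0.11, adjusted p = 0.0322). Values of Gm10143, the partner of Fen1, were not used here.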

How the data were processed

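RNA was sequenced from sorted CD4+CD25hi Treg in 18 libraries, 3 for each of 6 genotypes. The authors deposited RPKM per gene. The submitters' processing notes name STAR 2.2.0c, HOMER, mm10 and GRCm38, and the step that made the RPKM values, including its handling of strand, is not given in the sources used here. Depth is therefore known only as the rough estimate in the text. Of 23953 entries, 11520 reached 1 RPKM in at least 3 libraries and were tested as log2(RPKM + 0.5), so fold changes of low genes are understated.

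A single limma 3.58.1 model (R 4.3.3) with all 6 genotypes and a mean-variance trend gave 9 comparisons, each with Benjamini-Hochberg adjustment over all tested genes and a threshold of 0.05. The script was tested on simulated data. Alternatives were pseudocounts of 0.1 and 1, median-of-ratios scaling, no filter, a model of just the 2 genotypes compared, the replicate number as a block, a B cell marker covariate (16 markers) and leaving out libraries. Tables and figures used Python 3.11.15, pandas 2.3.3 and matplotlib 3.10.9.

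The 39 genes and the other lists were chosen with earlier results of these data known. Every one of the 39 is named, with values in each library for the most abundant gene of each role and the one with the largest fold change in miR-27 Tg, and the 3 highest and lowest fold changes are given for each comparison with WT. Promoter windows and microRNAs came from RefSeq (GRCm38.p6), and 3′ UTRs and gene overlaps from GENCODE M21.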

Additional observations from a re-analysis of the deposited data

How the results depend on the processing

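Of the 390 values recomputed for the counts and medians under other settings, 323 stayed close to the reported value. A count was taken as kept when it was within 1.5 times the reported count. A median was taken as kept when it moved by less than the spread between libraries. A count of 0 that stayed at 0 was also taken as kept, and many of the 323 were of this kind. Of the rest, 47 counts were lower and 9 higher, while 9 medians moved further and 2 changed sign. Counts of 24 and 25 in miR-27 Tg against WT are among those kept, beside the 35 reported. Both pseudocounts changed none. Without the filter the count of genes called higher was 4 in cluster Tg against WT and 6 against DKO, and 4 were lower in cluster Tg than in miR-27 Tg. Median-of-ratios scaling gave 6 in cluster Tg against WT. Over all tested genes these counts were 1633, 1765 and 351 without the filter and 1439 with the scaling. With only the compared genotypes in the model, the counts of genes called higher were 2 for miR-23 Tg and 21 for miR-27 Tg against WT, 1 for miR-27 Tg against miR-23 Tg, 3 against miR-24 Tg and 5 for cluster Tg against DKO, and 0 were lower in cluster Tg than in miR-27 Tg. Over all 11520 tested genes that model called 118, 1355, 1104, 524 and 837 higher in these comparisons. It called 2 lower in cluster Tg than in miR-27 Tg, from 386 in the full model.

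With the B cell marker covariate the genes called higher against WT numbered 0 for miR-27 Tg and 3 for cluster Tg, and 2 for miR-27 Tg against miR-23 Tg. For cluster Tg against DKO 4 were higher and 1 lower, while 0 were lower in cluster Tg than in miR-27 Tg. Over all tested genes 299, 1270 and 1231 were called higher with this covariate in the first 3 of these comparisons. For cluster Tg against DKO 1554 were higher and 1201 lower, and 28 were lower in cluster Tg than in miR-27 Tg. The median log2 fold changes with it were 0.19 for miR-23 Tg, -0.13 for miR-24 Tg and 0.44 for miR-27 Tg against WT and -0.22 for cluster Tg against miR-27 Tg. Without library 1 of miR-24 Tg and library 3 of miR-27 Tg, which had the highest B cell marker sums, 6 genes were higher in cluster Tg against WT, 0 in miR-27 Tg against miR-23 Tg and 7 against miR-24 Tg, and 1 was lower in cluster Tg than in miR-27 Tg. Over all tested genes these counts were 1549, 991, 778 and 153.

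Leaving out each library in turn gave 23 to 38 genes higher in miR-27 Tg against WT (median log2 fold change 0.71 to 1.12), 0 to 29 against miR-23 Tg (0.28 to 0.68) and 10 to 38 against miR-24 Tg (0.59 to 0.94). It gave 2 to 6 in cluster Tg against WT, 2 to 17 against DKO and 1 to 24 lower than in miR-27 Tg. Over all tested genes 1342 to 1884 were called higher in miR-27 Tg against WT, 942 to 1497 against miR-23 Tg and 937 to 1664 against miR-24 Tg. For cluster Tg there were 865 to 1644 against WT and 1047 to 1822 against DKO, with 137 to 668 lower than in miR-27 Tg. The median of DKO against WT ran from -0.14 to 0.18 and that of miR-24 Tg against WT from 0.02 to 0.25, the lowest without WT library 1. Both miR-27 Tg libraries 2 and 3 were also left out, a choice made after seeing the data. On the lone library the median was 0.34 against WT, -0.077 against miR-23 Tg and 0.25 against miR-24 Tg. For cluster Tg against this library the median was 0.038. Why these values moved was not tested.

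Over 45 pairs of same-numbered libraries the correlation of deviations had a median of 0.004, ran from -0.167 to 0.188 and exceeded 0.1 in 6. Most pairs thus showed no pairing by number, and a batch shared by some of the libraries was not tested. With the replicate block against WT 1 gene passed for miR-24 Tg and 15 for cluster Tg, 12 in miR-27 Tg against miR-23 Tg, with 16 for cluster Tg against DKO. Over all tested genes 610, 1794, 1642 and 1942 were then called higher, from 530, 1592, 1431 and 1734 without the block.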
